A study of Mus musculus with 162 samples.

Results

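Vgf, the neuronal pentraxin genes Nptx1, Nptx2 and Nptxr, the ligand gene Alkal2 (formerly Fam150b) and its receptor gene Alk were followed through RNA-seq libraries of a mouse model of atopic dermatitis and itch. These 6 genes, of 46078 listed, were selected on these same data. The choice rested on their read counts per 1000000 reads on genes (cpm) with MC903 against ethanol in trigeminal ganglion and spinal cord, so their values in those comparisons are descriptions and carry no p-value. Adult male C57BL/6 mice received 0.2 mM MC903 (calcipotriol, a vitamin D analog that inflames the skin) in ethanol, or ethanol alone, once daily. Cheek skin and the trigeminal ganglion of the treated side, which holds the cell bodies of the sensory neurons of the face, were taken on day 1 (hours after the first treatment), day 2, day 5 and day 8 from uninjected wild-type mice. On day 8 they were also taken from wild-type mice injected intraperitoneally with PBS or with 250 µg of the neutrophil-depleting antibody anti-Gr1 (aGr1). TSLPR KO mice, which lack the receptor of the epithelial cytokine TSLP in every cell, gave cheek skin and ganglia on days 8 and 12, and BLT1 KO mice, which lack a leukotriene B4 receptor, gave cheek skin on day 8. Spinal cord came from wild-type mice treated on the back skin and taken on day 8, either uninjected or injected with PBS or aGr1, so ganglion and cord were reached from different skin sites. Each group had its own ethanol libraries, and where wild-type mice were not injected, day 8 ganglion and skin libraries have sample labels in 2 styles, here called cohorts A and B. Of 162 libraries, 144 were used, 56 of ganglion, 27 of cord and 61 of skin, with 2 to 8 per group. The 18 wild-type day 12 libraries were left out as a whole, by genotype and day. In those labelled skin Vgf ran from 0 to 264 cpm, with 6 of 9 above 50 cpm, and in those labelled ganglion it was below 5 cpm in 6 of 9. The labels do not say that replicates are separate animals, so p-values measure the spread between these samples, which may be technical.

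Vgf encodes a secreted precursor that neurons store in dense-core vesicles and cut into several neuropeptides, and its transcription is induced by neurotrophins and by activity. Nptx1 and Nptx2 encode secreted pentraxins and Nptxr encodes their membrane-bound relative, and the complexes they form gather AMPA-type glutamate receptors at synapses. Alkal2 encodes a secreted activating ligand of the receptor tyrosine kinase ALK, and both genes are known from sensory neurons and from pain.

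The genes lie on 5 chromosomes of GRCm38. Vgf is at chr5:137026392-137033351 on the plus strand, Nptx2 at chr5:144545902-144557478 (plus), Nptx1 at chr11:119538719-119547753 (minus), Nptxr at chr15:79786351-79804766 (minus), Alkal2 at chr12:30884322-30893854 (plus) and Alk at chr17:71868972-72604627 (minus). Reads were 50 bases long and were counted over exons, so the chance that a read of one member falls on another gene was checked against all annotated transcripts. None of the 50-base windows of Vgf, Nptx1, Nptx2 or Alk occurs in another gene. The 3 pentraxin genes are relatives, but the longest identical stretches of their coding sequences are far shorter than a read. Those stretches are shown to make that visible, in capitals with 12 flanking bases on each side.
Nptx1 (shared with Nptx2): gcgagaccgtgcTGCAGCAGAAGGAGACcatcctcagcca
Nptx2 (shared with Nptx1): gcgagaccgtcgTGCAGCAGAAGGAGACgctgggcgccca
Nptx2 (shared with Nptxr): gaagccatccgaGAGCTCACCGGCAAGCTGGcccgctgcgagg
Nptxr (shared with Nptx2): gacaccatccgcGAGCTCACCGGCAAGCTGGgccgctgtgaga
The shared runs measure 16 bases for Nptx1 and Nptx2, 19 for Nptx2 and Nptxr and 13 for Nptx1 and Nptxr. The counts of the 3 pentraxin genes are thus not mixed with each other. Nptxr is less certain, because 17.1% of its windows occur in another gene, partly through an exon overlap on the same strand with Npcd, which itself reached at most 0.202 cpm in any library. Alkal2 is also less certain, because 32.9% of its windows lie in the exons of Acp1 on the opposite strand, and the strand setting of the counting is not stated.

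The bases just upstream of Alkal2 are given because Alkal2 had the highest log2 fold change of the 6 genes with MC903 in the ganglion on day 5, in the 3 wild-type sets of day 8 and in TSLPR KO on day 12. They are from RefSeq (GRCm38.p6, chr12:30884074-30884321, plus strand), with the half-site of the cAMP response element, TGACG, in capitals.
Alkal2 upstream: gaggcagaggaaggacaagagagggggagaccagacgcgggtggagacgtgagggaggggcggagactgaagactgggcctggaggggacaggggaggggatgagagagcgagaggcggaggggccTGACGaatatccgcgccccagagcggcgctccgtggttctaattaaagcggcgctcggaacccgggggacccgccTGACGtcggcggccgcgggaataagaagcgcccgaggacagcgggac
The window of 248 bases is 68.1% G and C. The half-site, searched on both strands, occurs 2 times, the nearer one 47 bases before the annotated start. At least 1 half-site is in 17.8% of 32851 mouse promoter windows of 250 bases, so its presence is common. Neither the full element TGACGTCA (1.55% of windows) nor an AP-1 site, TGACTCA or TGAGTCA (4.46%), is in the Alkal2 window. The promoters of Vgf, Nptx1, Nptx2 and Nptxr were not analysed here.

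The libraries used held between 15931871 and 67342879 reads on genes (median 27654801.5). The sum over 9 sensory-neuron markers (among them Prph, Avil, Scn10a and Trpv1) lay between 3620 and 7881 cpm in 54 of the 56 ganglion libraries and between 716 and 1896 cpm in cord. MC903 replicates 1 and 2 of day 1 were lower, at 1760 and 2228 cpm, and held the highest sums of satellite glia and Schwann cell markers, 19720 and 17490 cpm. In skin the same neuronal sum was at most 59.7 cpm except in MC903 replicate 3 of day 2, which held 1655 cpm.

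In ethanol-treated, uninjected wild-type mice on day 8, all 6 genes were called higher in ganglion than in skin, where 29.98% of all genes were. The selection did not compare tissues, but it rested on counts in ganglion and cord. Neither the contrast with skin nor that between ganglion and cord is therefore independent support. The ganglion and cord then split the genes. Nptx2 and Alkal2 were higher in ganglion and Alk was higher in cord, although in cord Nptx2 still stood above Alk. Per kilobase of exon, the ganglion order by median was Nptx1 at 46.02 cpm per kb, Nptx2 at 20.3, Nptxr at 13.98, Vgf at 13.5, Alkal2 at 1.03 and Alk at 0.120. The ranges of Nptx2, Nptxr and Vgf overlapped there, and the other neighbours did not overlap. In cord the order was Nptx1 at 31.9, Vgf at 24.4, Nptxr at 9.09, Nptx2 at 3.38, Alk at 0.795 and Alkal2 at 0.0229 cpm per kb, with no overlap between neighbours. In skin every gene overlapped its neighbour in the order, with medians from 1.42 cpm per kb for Nptxr down to 0 for Alk.

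**Figure D1:**
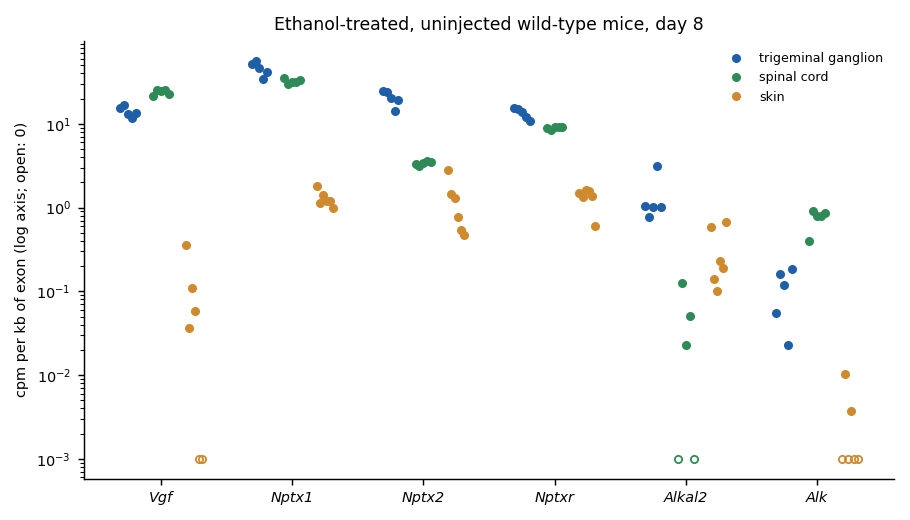
Levels of the 6 genes in ethanol-treated, uninjected wild-type mice on day 8, in cpm per kilobase of exon on a log axis, 1 point per library (5 ganglion, 5 cord and 6 skin libraries; open points are libraries at 0). Nptx2 and Alkal2 stand higher in ganglion than in cord, and Alk stands higher in cord.

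In cpm, Nptx2 was 51.8 ± 10.6 in ganglion (SD, n = 5) and 8.60 ± 0.47 in cord (n = 5), a log2 difference of 2.59 ± 0.36 (SE; adjusted p = 1.1e-05, edgeR's quasi-likelihood test). Alkal2 was 2.12 ± 1.48 cpm in ganglion and 0.0603 ± 0.0790 in cord, a log2 difference of 5.09 ± 0.77 (adjusted p = 3.1e-05, edgeR), and no cord library held more than 8 Alkal2 reads. Its receptor was placed the other way round. Alk was 0.839 ± 0.527 cpm in ganglion and 5.82 ± 1.58 in cord, a log2 difference of −2.78 ± 0.48 for ganglion minus cord (adjusted p = 1.1e-04, edgeR). Nptx1 was higher in ganglion by 0.51 ± 0.17 (adjusted p = 0.0253, edgeR) and Nptxr by 0.58 ± 0.21 (adjusted p = 0.0368), but with ganglion and skin libraries of cohort B only, both missed the threshold of 0.05, at adjusted p = 0.132 and 0.220. Vgf did not differ past that threshold (log2 difference −0.77 ± 0.36, adjusted p = 0.113), and with cohort B alone it did (−0.96, adjusted p = 0.00248). In all, 4 of the 6 genes were called higher in ganglion than in cord, where 17.3% of all 27791 genes tested were, and 1 was called lower, against 18.2% of all genes. Nothing is read from these counts, and the p-values are no independent support, since the choice rested on reads in both tissues. Against skin, the log2 differences were 7.37 ± 0.49 for Vgf (adjusted p = 9.5e-11), 5.34 ± 0.69 for Alk (1.3e-06), 5.30 ± 0.19 for Nptx1 (2.2e-14), 4.18 ± 0.36 for Nptx2 (5.0e-09), 3.46 ± 0.21 for Nptxr (3.4e-11) and 2.29 ± 0.58 for Alkal2 (0.00205), all from edgeR. Tissue and sequencing run cannot be told apart here. Alk held at most 3 reads in any of these skin libraries, and Alkal2 at most 6 in any of these cord libraries. Those contrasts therefore rest on the reads of the ganglion, and their adjusted p is to be read with that limit.

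In the ganglion, Vgf was 2.87 times higher in mean cpm with MC903 than with ethanol on day 5 and about as much higher on day 8, while days 1 and 2 showed no such excess. On day 5 the ethanol libraries held 30.4, 36.4 and 29.5 cpm of Vgf and the MC903 libraries 52.8, 90.9 and 132.7 cpm. All MC903 libraries were above all ethanol libraries, as for 3.24% of all genes that day, with wide spread among them, and the log2 fold change was 1.56 ± 0.28 (SE). Ethanol replicates 2 and 3 of day 5 held 11540 and 6073 cpm of 8 pituitary markers, against 51.4 cpm in replicate 1 and 55.1 to 605 cpm with MC903. Of the 7 tested, none was called (median log2 fold change −4.17), and Lhb was at or under 3 reads in every library of that day. With ethanol replicate 1 as the only control, the log2 fold change was 1.58 for Vgf, 1.34 for Nptx2, 0.55 for Nptx1, 0.74 for Nptxr and 2.26 for Alkal2, and no gene was called, with a lone control assumed to vary like the MC903 group. In cohort A of day 8, Vgf was 46.5 and 49.9 cpm with ethanol and 178 and 165 cpm with MC903, and in cohort B it was 38.6, 34.6 and 40.2 cpm against 75.5, 112.8 and 89.3 cpm. The groups were apart in both cohorts (as for 18.6% of all genes in A, 6.11% in B and 0.582% in both pooled), and the log2 fold change was 1.83 ± 0.13 in A, 1.28 ± 0.14 in B and 1.504 ± 0.123 in both together. In PBS-injected mice Vgf was 67.9, 75.4 and 83.4 cpm with ethanol and 222, 195, 295 and 200.4 cpm with MC903, a log2 fold change of 1.59 ± 0.13 without overlap (7.71% of all genes). The highest Vgf level of all ganglion libraries is among these, and the ethanol libraries of that set were also above every uninjected ethanol library of day 8. A ganglion library measures all its cells together, so a change in the number of cells of a type and one in RNA per cell cannot be told apart, here or for the other genes.

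Nptx2 behaved much like Vgf, with 2.70 times the mean cpm on day 5 and 2.74 times on day 8, and Nptx1 and Nptxr differed by less. On day 5 Nptx2 was 41.5, 39.1 and 37.7 cpm with ethanol and 84.2, 116.6 and 118.9 cpm with MC903 (log2 fold change 1.47 ± 0.17). On day 8 it was 61.8 and 60.9 cpm against 204 and 189 cpm in cohort A, and 51.6, 35.7 and 48.97 cpm against 86.98, 120.6 and 109.7 cpm in cohort B, which gave 1.40 ± 0.12 together. In PBS-injected mice the ethanol libraries held 41.8, 45.1 and 43 cpm and the MC903 libraries 135, 119.3, 163 and 72.3 cpm (1.49 ± 0.20). The groups were apart in each of these sets, and MC903 replicate 4 of the PBS set lay lowest among its group. Nptx1, the most abundant of the 6 genes in the ganglion, was 244, 229.6 and 235 cpm with ethanol and 342, 330.1, 367 and 309.7 cpm with MC903 in PBS-injected mice. That difference was narrow but steady, with a log2 fold change of 0.51 ± 0.06 and no overlap. On day 5 Nptx1 had a log2 fold change of 0.71 ± 0.21 (ethanol 167 to 201 cpm, MC903 208 to 371 cpm), and on day 8 of 0.55 ± 0.08. The day 8 groups overlapped when the cohorts were pooled (180.4 to 297 against 281 to 453 cpm) and were apart within each cohort. Nptxr was 101, 91.9 and 91.1 cpm with ethanol and 156, 140.2, 164 and 130.7 cpm with MC903 in PBS-injected mice, a log2 fold change of 0.64 ± 0.07. Its groups overlapped on day 5 (0.51 ± 0.22) and on day 8 uninjected (0.46 ± 0.11), where cohort A gave 0.77 ± 0.13 and cohort B 0.26 ± 0.12.

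Alkal2 had a low level and a wide relative difference, 7.28 times the ethanol mean on day 5 and 7.88 times in PBS-injected mice on day 8. On day 5 the 3 ethanol libraries held 1.79, 0.764 and 1.02 cpm and the 3 MC903 libraries 8.69, 8.52 and 8.82 cpm (log2 fold change 2.88 ± 0.35). The pituitary-rich ethanol replicates 2 and 3 held the lower 2 of the ethanol values. The MC903 libraries of that day were nearly equal to each other for Alkal2, although they were far apart for Vgf and Nptx1. In PBS-injected mice Alkal2 was 1.07, 1.30 and 1.24 cpm with ethanol and 11.2, 7.09, 13.4 and 6.16 cpm with MC903 (2.95 ± 0.30). On day 8 uninjected it was 1.59 and 1.16 cpm against 6.97 and 12.3 cpm in cohort A (2.82 ± 0.32), and 1.53, 4.75 and 1.55 cpm against 4.83, 9.82 and 6.47 cpm in cohort B (1.40 ± 0.47). Ethanol replicate 2 of cohort B stood apart at 4.75 cpm, just below the lowest MC903 library. Without it the log2 fold change of both cohorts together went from 1.95 to 2.48. The receptor gene Alk stayed between 0.121 and 5.17 cpm in the ganglion. In PBS-injected mice it was 0.816, 1.11 and 0.890 cpm with ethanol and 2.26, 1.85, 1.95 and 1.89 cpm with MC903, a log2 fold change of 1.05 ± 0.22 without overlap. Its error was as wide as its difference in the uninjected mice (0.21 ± 0.52 on day 5 and 0.48 ± 0.65 on day 8), where the groups overlapped.

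**Figure D2:**
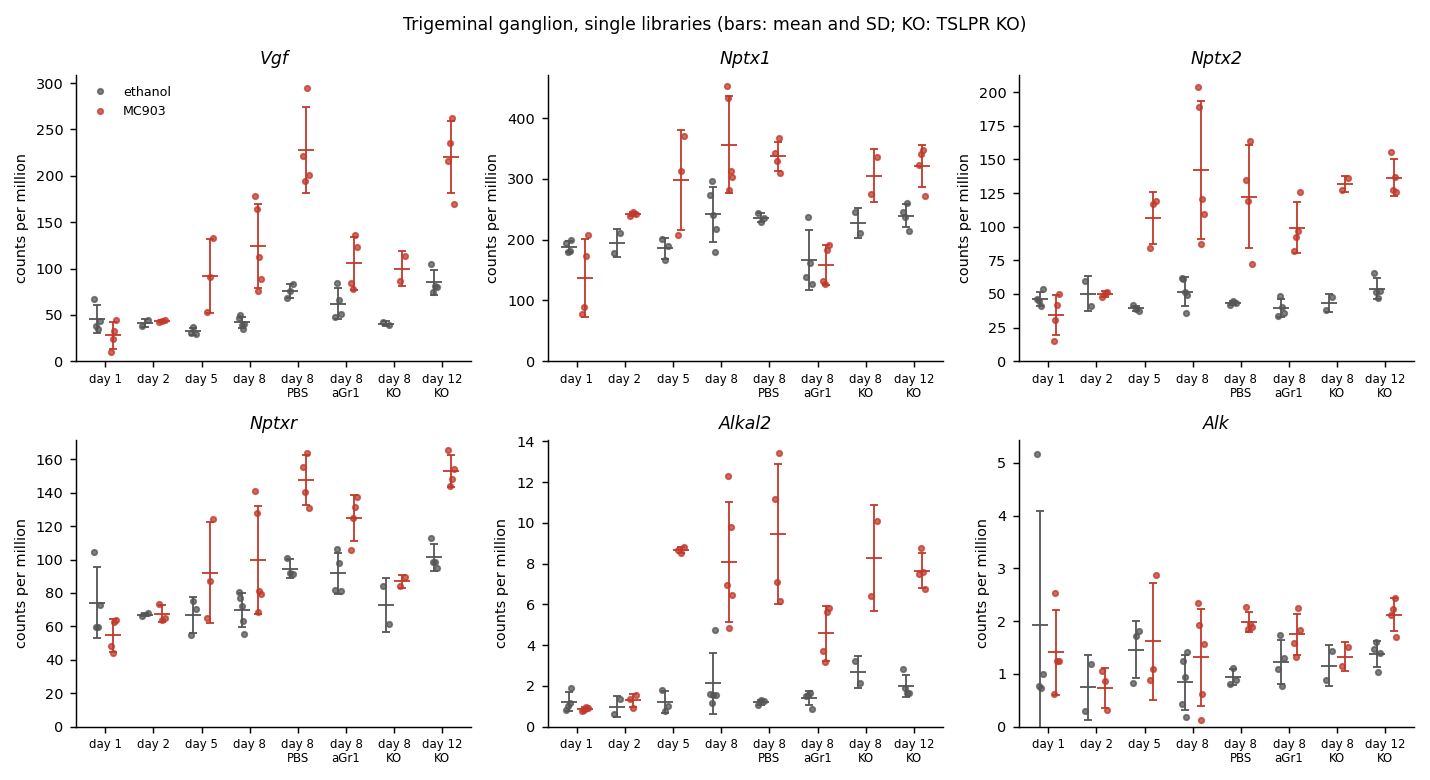
Level of each of the 6 genes in every used trigeminal ganglion library, in cpm, by day, injection and genotype, with ethanol in grey and MC903 in red (1 point per library; horizontal bars are means and error bars are SD). Vgf, Nptx2 and Alkal2 are higher with MC903 from day 5 on, and on days 1 and 2 the groups overlap for these 3 genes.

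On day 1, when all 6 log2 fold changes were below 0, Vgf was 67.2, 37.8, 34.5 and 43.2 cpm with ethanol and 9.74, 24.4, 33.01 and 44.2 cpm with MC903. The 2 lowest of these MC903 libraries are replicates 1 and 2, which held few neuronal and many glial markers. A fit without them was added after their marker sums were seen. In it the log2 fold change went from −0.75 ± 0.41 to −0.25 ± 0.25 for Vgf, from −0.51 ± 0.32 to −0.001 ± 0.109 for Nptx1 and from −0.48 ± 0.33 to −0.03 ± 0.14 for Nptx2. Nptxr, Alkal2 and Alk are not given here for that fit. The part of these libraries in the differences was not tested. Ethanol replicate 1 of day 1 stood apart for Alk, with 5.17 cpm against 0.722 to 1.004 cpm in its group, and that library held 4386 cpm of pituitary markers. On day 2, Vgf was 38.1 and 44.6 cpm with ethanol and 42.6, 43.8 and 44.3 cpm with MC903. Nptx1 was already apart by then, at 179 and 212 cpm with ethanol and 239, 246 and 243 cpm with MC903 (log2 fold change 0.31 ± 0.13; 10.6% of all genes were higher without overlap), and the other 5 genes overlapped.

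In mice injected with aGr1 the ganglion differences of Nptx2 and Alkal2 were present without overlap, those of Vgf and Nptxr with overlap, and Nptx1 showed none. Nptx2 was 33.8, 48.7, 40.6 and 35.5 cpm with ethanol and 81.9, 92.1 and 97.1 cpm in MC903 replicates 1 to 3, with replicate 4 higher still, a log2 fold change of 1.35 ± 0.14. Alkal2 was 1.48, 1.55, 1.63 and 0.878 cpm with ethanol and 3.69, 3.17, 5.62 and 5.80 cpm with MC903 (1.75 ± 0.25). Both were higher without overlap, as 3.43% of all genes were. Vgf was 47.8, 83.96, 66.2 and 50.8 cpm with ethanol and 84.8, 78.1, 136 and 122.7 cpm with MC903, so that its groups overlapped (0.78 ± 0.19). The groups also overlapped for Nptxr (81.2 to 106.2 against 105.8 to 137.2 cpm, 0.46 ± 0.11) and for Alk (0.53 ± 0.27). Nptx1 was 139, 238, 161 and 127.5 cpm with ethanol and 132.8, 126.5, 183.5 and 191 cpm with MC903 (−0.05 ± 0.18). With the exception of ethanol replicate 2, these Nptx1 values were below every library of the PBS set, ethanol libraries included. The MC903 difference in aGr1-injected mice minus that in PBS-injected mice, from 1 fit of the 4 groups, was −0.79 ± 0.26 for Vgf, −0.54 ± 0.22 for Nptx1, −1.18 ± 0.42 for Alkal2, −0.51 ± 0.36 for Alk, −0.16 ± 0.14 for Nptxr and −0.13 ± 0.26 for Nptx2 on the log2 scale. All 6 values were below 0, but the genes were chosen on these comparisons, so nothing is read from the shared sign. Over all genes the median of this difference was 0.012. In that fit 1 of 25760 genes passed an adjusted p of 0.05 (edgeR), and it was none of the 6. The values for Nptx2 and Nptxr were about as small as their error, and leaving out 1 library at a time moved the Nptx2 value between −0.32 and 0.04. MC903 replicate 1 of the aGr1 set held 118.1 cpm of immune cell markers against 20.9 to 35.2 cpm in its ethanol group, and its part in these values was not tested. Beside uninjected mice of day 8 the picture was mixed. Their log2 fold changes for Alkal2 (1.952 ± 0.387), Alk (0.477 ± 0.646), Nptxr (0.464 ± 0.108) and Nptx2 (1.402 ± 0.123) were near those with aGr1. For Vgf (1.504 ± 0.123) and Nptx1 (0.548 ± 0.080) they were above those with aGr1. Whether aGr1-injected and uninjected mice differ was not tested.

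In TSLPR KO ganglia Vgf, Nptx2 and Alkal2 were higher with MC903 in every library on both days, as 2.29% of all genes were on day 12 and 17.4% on day 8. On day 12, with 4 libraries per group, Vgf was 105, 74.3, 80.9 and 79.7 cpm with ethanol and 216, 235, 262 and 169.6 cpm with MC903 (log2 fold change 1.41 ± 0.15). Nptx2 was 65.5, 51.6, 47.2 and 51.9 cpm against 156, 127.3, 137 and 125.5 cpm (1.37 ± 0.12), and Alkal2 2.81, 1.89, 1.66 and 1.65 cpm against 7.50, 8.79, 7.58 and 6.74 cpm (1.96 ± 0.18). The smaller differences were also apart on that day. Nptxr was 112.9, 98.5, 98.6 and 95.0 cpm against 166, 144, 148 and 154 cpm (0.62 ± 0.08), Nptx1 245, 238, 261 and 215 cpm against 323, 341, 348 and 272 cpm (0.45 ± 0.10), and Alk 1.47, 1.60, 1.04 and 1.39 cpm against 2.12, 2.22, 2.44 and 1.69 cpm (0.66 ± 0.19). On day 8, with 2 libraries per group, Vgf was 42.4 and 38.9 cpm against 86.3 and 113.1 cpm (1.36 ± 0.18), Nptx2 38.3 and 47.7 cpm against 127.5 and 136 cpm (1.69 ± 0.18), and Alkal2 3.23 and 2.11 cpm against 6.43 and 10.1 cpm (1.68 ± 0.39). MC903 replicate 1 of that set held 134 cpm of keratinocyte markers against 2.50 to 4.43 cpm in its ethanol group. Whether TSLPR KO differs from wild type was not tested.

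The number of the 6 genes that passed an adjusted p of 0.1 in edgeR's fit of all genes depended on the set of libraries, and it is given as a count from which nothing is read, since the genes were chosen on these comparisons. None passed on day 1, when 0% of 25319 genes were called higher with MC903, or on day 2 (0% of 24092) or in TSLPR KO on day 8 (0% of 23402). At an unadjusted p under 0.05 these fits held 2034, 1527 and 1886 genes, and DESeq2 called 78, 65 and 185. On day 5, 2 passed (Nptx2 and Alkal2), where 0.00823% of all genes did, in other words no other gene. A fit that blocked on the replicate number, which pairs the libraries of that day, called 3 of the 6 and 54 genes in place of 2. On day 8 in uninjected mice 3 passed (Vgf, Nptx1 and Nptx2; background 0.125%), in PBS-injected mice 6 (1.91%) and in aGr1-injected mice 4 (0.875%). In TSLPR KO on day 12, 4 passed (Vgf, Nptx2, Nptxr and Alkal2; background 0.289%), and with the block on the replicate number, which also pairs that set, 5 passed and 356 genes were called in place of 79. Sensory-neuron markers moved a little in the same direction, with 3 of 9 called higher in the PBS set (Calca, Trpv1 and Prph; median log2 fold change of the 9, 0.12), 2 of 9 in TSLPR KO on day 12 (0.21), and 1 of 9 each in the uninjected (0.21) and aGr1 (0.04) sets of day 8. In the PBS set the marker sum was 6263 to 6439 cpm with ethanol and 6481 to 7264 cpm with MC903, and its part in the members' differences was not tested.

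**Figure D3:**
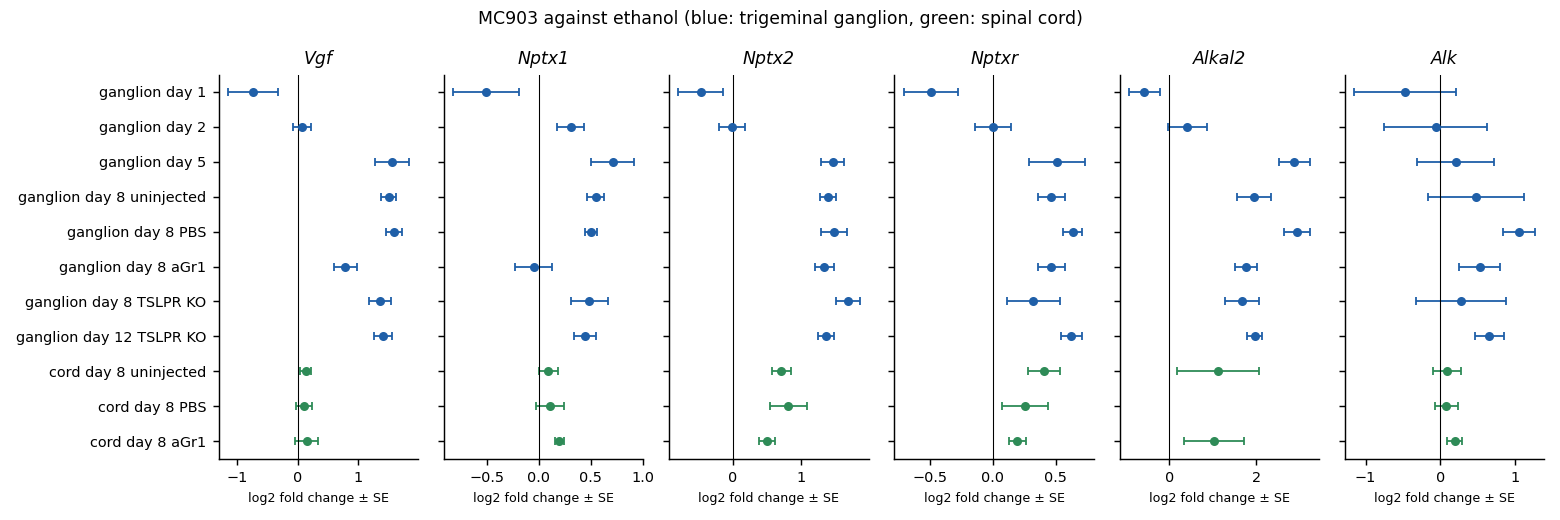
Log2 fold change of MC903 against ethanol for each gene in the 8 ganglion comparisons (blue) and the 3 spinal cord comparisons (green), with SE as bars. Alkal2, Vgf and Nptx2 sit right of 0 in every ganglion comparison from day 5 on. In cord every value drawn lies right of 0, and Vgf lies within 0.15 of 0.

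In the spinal cord after MC903 on the back, Vgf overlapped in each set and Nptx2 was apart in the uninjected and PBS sets. None of the genes was apart in every cord set. In uninjected mice Nptx2 was 8.30, 8, 8.57, 9.14 and 8.97 cpm with ethanol and 19.5, 13.4, 11.4 and 12.3 cpm with MC903 (log2 fold change 0.71 ± 0.14), apart as 6.86% of all genes were. In PBS-injected mice it was 4.83 and 5.48 cpm against 12.01 and 6.71 cpm (0.82 ± 0.27; apart, as 18.8% of all genes were), and in aGr1-injected mice 5.97 to 10.4 cpm (median 7.61, n = 6) against 9.31 to 13.7 cpm (median 11.5, n = 8), which overlapped (0.50 ± 0.12). Vgf had log2 fold changes of 0.13 ± 0.09, 0.10 ± 0.13 and 0.15 ± 0.19 in these sets, with overlap in each. Its spread among the 8 aGr1 MC903 libraries was wide, from 61.97 to 219 cpm, while the 6 ethanol libraries held 108 to 142 cpm. Nptx1 was apart only in the aGr1 set, at 175 to 205 cpm against 206 to 249 cpm (0.20 ± 0.05; 1.64% of all genes), and Nptxr only in the uninjected set, at 44.2 to 47.5 cpm against 48.6 to 78.6 cpm (0.41 ± 0.13). Alk, which is far higher in cord than in ganglion, was 3.08 to 7.12 cpm with ethanol and 5.42 to 7.41 cpm with MC903 in uninjected mice (0.09 ± 0.19). Alkal2 never exceeded 0.263 cpm in cord, and no difference of it was detectable at this depth. At the adjusted p of 0.05 used for cord, 1 of the 6 passed in uninjected mice (Nptx2; 5.05% of all genes were called higher), 2 in aGr1-injected mice (Nptx1 and Nptx2; 4.54%), and none of the 5 tested in PBS-injected mice (0% of 24573 genes, with 1571 at an unadjusted p under 0.05 and 178 called by DESeq2). Markers of satellite glia and Schwann cells summed to 28010 to 33870 cpm with ethanol and 21410 to 26290 cpm with MC903 in uninjected mice, with 3 of 7 called lower, and 3 of 7 were called lower in aGr1-injected mice too. Of the astrocyte and oligodendrocyte markers 4 of 6 were called lower in both sets. Their part in the Nptx2 values was not tested. The aGr1 and PBS differences in cord were not apart by more than about their error for any of the 6 genes (−0.32 ± 0.28 for Nptx2, 0.04 ± 0.38 for Vgf).

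Cheek skin, whose comparisons were not used in the choice, holds these genes at low levels, and there Nptx1 fell with MC903 on both days tested and Nptx2 on day 8. Nptx1 fell from 6.44 ± 2.63 cpm with ethanol to 1.84 ± 0.32 cpm with MC903 on day 5 (SD, n = 3 each), and the log2 fold change was −1.86 ± 0.29 (SE; adjusted p = 0.00608, edgeR). On day 8 in uninjected mice it fell from 6.73 ± 1.55 cpm (n = 6) to 2.01 ± 0.68 cpm (n = 5), a log2 fold change of −1.82 ± 0.19 (adjusted p = 2.1e-05, edgeR), with −1.66 in cohort A and −2.06 in cohort B. The groups were apart on both days, as 11.6% and 5.09% of all genes were in that direction. Nptx2 fell from 3.12 ± 2.24 to 1.69 ± 1.04 cpm on day 8 (−1.10 ± 0.25, adjusted p = 0.00742, edgeR), but its levels differed between the cohorts, and without the term for cohort, or in either cohort alone, it missed the threshold of 0.05 (−0.88 with adjusted p = 0.256 without the term, 0.0685 in A and 0.133 in B). On day 5 Nptx2 had a log2 fold change of −1.27 ± 0.42 (adjusted p = 0.0806, edgeR). Nptxr was −0.70 ± 0.23 on day 5 (adjusted p = 0.0792) and −0.73 ± 0.26 on day 8 (adjusted p = 0.0570, edgeR). It passed 0.05 with DESeq2 on both days (adjusted p = 0.0328 and 0.0249), and on day 8 also with no filter on low counts (0.0466), in cohort B with the replicate block (0.00164), without ethanol replicate 3 of cohort B (0.00797) and without 1 MC903 library of cohort A (0.0478). Alkal2 was −1.92 ± 0.67 on day 5 (adjusted p = 0.0946) and 0.01 ± 0.58 on day 8 (adjusted p = 0.996), from levels of 0.672 ± 0.360 and 0.485 ± 0.371 cpm with ethanol. Vgf was near the detection limit in skin (adjusted p = 0.820 and 0.502), and Alk had too few reads to be tested. On day 5, 1 of the 5 genes tested was called lower, where 6.78% of all genes were, and on day 8, 2 of 5, where 11.2% were. Satellite glia and Schwann cell markers, which in skin mark nerve, summed to 98.7 to 191 cpm with ethanol and 78.9 to 103 cpm with MC903 on day 5, and 2 of 7 were called lower and 1 higher on both days. Keratinocyte markers summed to 6209 to 8041 cpm with ethanol and 12410 to 17890 cpm with MC903 on day 5, and 2 of 4 were called higher and 1 lower on both days. Skeletal muscle markers fell too, with 2 of 4 called lower on day 5 (9044 to 12130 cpm against 3165 to 6158 cpm, median log2 fold change −1.23) and 4 of 4 on day 8 (2802 to 13200 cpm against 1518 to 3003 cpm, −1.74). Of 8 immune cell markers, 2 were called higher and 1 lower on day 5 and 6 higher and 1 lower on day 8, where they summed to 49.2 to 95.1 cpm with ethanol and 147 to 455 cpm with MC903. The sensory-neuron markers, at 14.8 to 24.6 cpm on day 5, did not separate the groups. The part of these shifts in the fall of Nptx1 was not tested.

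**Figure D4:**
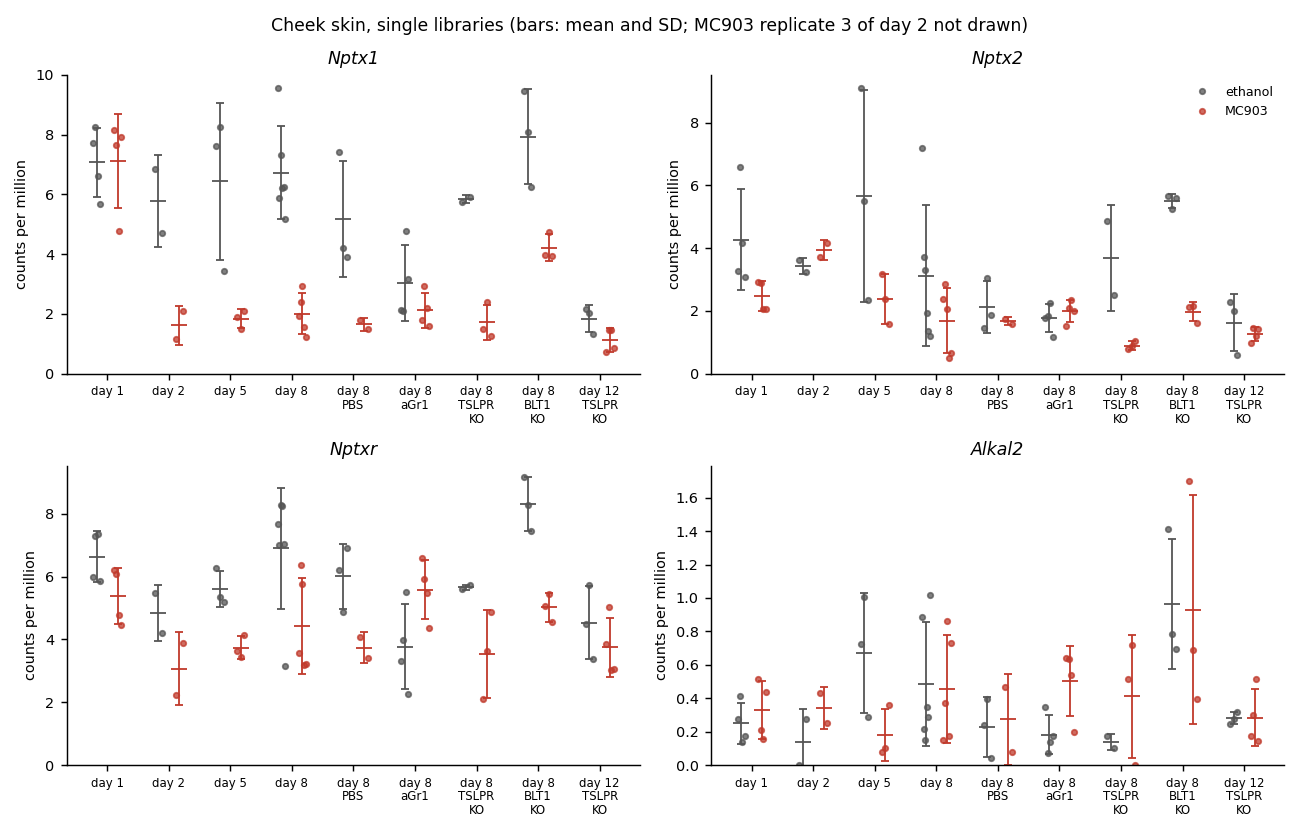
Levels of the 3 pentraxin genes and Alkal2 in cheek skin libraries, in cpm, by day, injection and genotype, with ethanol in grey and MC903 in red (1 point per library; horizontal bars are means and error bars are SD; MC903 replicate 3 of day 2, which holds 1655 cpm of sensory-neuron markers, is not drawn). Nptx1 with MC903 lies below ethanol on days 2, 5 and 8, in PBS-injected mice and in both knockout lines on day 8, and the groups overlap on day 1, after aGr1 and in TSLPR KO on day 12.

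The other 7 skin sets were described without a test, a choice made after their values were seen. All Nptx1 values with MC903 were below all ethanol values in PBS-injected mice (1.496 to 1.81 against 3.91 to 7.43 cpm, as for 17.2% of all genes), in TSLPR KO on day 8 (1.27 to 2.38 against 5.74 to 5.93 cpm; 16.6%) and in BLT1 KO on day 8 (3.94 to 4.74 against 6.26 to 9.44 cpm; 19.9%). They overlapped on day 1 (4.78 to 8.15 against 5.69 to 8.26 cpm), in aGr1-injected mice (1.59 to 2.93 against 2.08 to 4.79 cpm) and in TSLPR KO on day 12 (0.738 to 1.48 against 1.32 to 2.16 cpm). In these 3 sets 5.35%, 7.34% and 4.93% of all genes were lower without overlap. On day 2, where 19.5% of all genes were lower without overlap apart from MC903 replicate 3, Nptx1 was 6.87 and 4.70 cpm with ethanol and 1.16 and 2.09 cpm with MC903. Replicate 3 held 93.1 cpm of Nptx1, 45.9 cpm of Nptx2, 33.8 cpm of Nptxr, 28.7 cpm of Vgf and 5.23 cpm of Alkal2 beside its neuronal markers. On day 2 Nptx2 was higher with MC903 without overlap, also apart from replicate 3 (3.25 and 3.62 cpm against 3.703 and 4.17 cpm, as for 17.99% of all genes). It was lower without overlap on day 1, in TSLPR KO on day 8 and in BLT1 KO, and Nptxr in PBS-injected mice, in TSLPR KO on day 8 and in BLT1 KO.

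Around the 6 genes stand others of the same pathways, in lists drawn up with earlier results of these data known, so their counts and p-values are no independent support. Of the granins and prohormone-processing genes, which share the dense-core vesicle with Vgf, 2 of 10 were called higher in the ganglion of PBS-injected mice. These were Scg2, the secretogranin II precursor (log2 fold change 0.32 ± 0.06, adjusted p = 0.0199, edgeR), and Scg3 (0.35 ± 0.06, adjusted p = 0.0116). Scg2 was also called after aGr1 (0.44 ± 0.11, adjusted p = 0.0763) and in TSLPR KO on day 12 (0.53 ± 0.09, adjusted p = 0.0539), and no gene of the list in the other 5 ganglion sets. The list's median log2 fold change in the PBS set was 0.05, beside 0.00 over all genes. Of 9 activity-regulated neuronal genes, Bdnf, a neurotrophin, and Junb, a transcription factor of the AP-1 family, were called higher in 3 ganglion sets: day 8 uninjected (1.38 ± 0.16 and 0.92 ± 0.16; adjusted p = 0.00259 and 0.0402, edgeR), PBS (1.65 ± 0.13 and 1.15 ± 0.14; 4.7e-05 and 9.5e-04) and TSLPR KO on day 12 (1.38 ± 0.15 and 0.76 ± 0.12; 0.00221 and 0.0286). After aGr1 Bdnf was called (1.32 ± 0.24, adjusted p = 0.0148, edgeR) and Junb was not, with 4.64 to 8.44 cpm against 5.54 to 7.79 cpm. The list's median was 0.72 in the PBS set and 0.49 on day 8 uninjected. Of the 5 AMPA receptor and pentraxin-shedding genes, the partners of the neuronal pentraxins, of the 2 receptor genes for VGF peptides, of the other pentraxins (2 of 4 tested) and of the other ALK family genes (3 of 4 tested), none was called in any ganglion set. Alkal1, the second ALK ligand gene, had 6 reads over all 162 libraries, those left out included.

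In cord the related genes moved in both directions. Ptn and Mdk, which encode the growth factors pleiotrophin and midkine, fell in uninjected mice (−0.98 ± 0.09 and −0.91 ± 0.11, adjusted p = 1.6e-05 and 1.5e-04, edgeR) and in aGr1-injected mice (−0.68 ± 0.07 and −0.64 ± 0.09, adjusted p = 6.7e-06 and 9.3e-05). Over all genes 7.14% and 6.79% were called lower in these sets. Scg2 rose by 0.38 ± 0.06 and 0.25 ± 0.06 (adjusted p = 0.00106 and 0.0110, edgeR) and Scg5 by 0.60 ± 0.10 and 0.33 ± 0.07 (0.00150 and 0.00347), so that 2 of 10 genes of that list rose in uninjected and 4 of 10 in aGr1-injected mice, where 5.05% and 4.54% of all genes were called higher. Of the activity-regulated genes, Fos (0.85 ± 0.17), Junb (0.81 ± 0.16) and Nr4a1 (1.04 ± 0.22) rose and Arc fell (−1.01 ± 0.18) in uninjected mice, with adjusted p from 0.00269 to 0.00593 in edgeR. In aGr1-injected mice Egr1 (0.57 ± 0.11) and Bdnf (0.38 ± 0.10) rose and Arc fell (−0.87 ± 0.13, adjusted p = 2.5e-04). Adam17, a sheddase that cuts the pentraxin receptor from the membrane, fell in both (−0.70 ± 0.14 and −0.35 ± 0.05, adjusted p = 0.00521 and 1.1e-04, edgeR).

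Across the 56 ganglion libraries, with each of 8 sets (PBS and aGr1 together, the day 8 cohorts apart) centred on its own mean so that treatment remains in the values, Vgf and Nptx2 were among the genes most like each other (Pearson's r = 0.919 over log2 cpm; 16958 genes compared). Nptx2 was most like Serpina3n, a protease inhibitor (r = 0.933), and Ptpn9 (0.922), and after Vgf like Il31ra, the receptor of the itch cytokine interleukin 31 (0.911), and Osmr, its partner chain (0.907). Also among the genes most like Vgf were Sbno2 (0.891), Ptpn9 (0.877) and Adamts8 (0.876). The genes most like Alkal2 included Nt5e (0.888) and Nptx2 (0.873), and Nptxr was most like Vgf (0.872) and Adamts8 (0.828). Nptx1 had other neighbours, led by Disp3 (0.921), Itga3 (0.884) and Jup (0.876), with r of 0.840 to Vgf and 0.605 to Alkal2. Alk had r of 0.291 to Alkal2 and 0.773 to its nearest gene, Ndn, but few reads limit its values (mean 1.40 cpm over these libraries). These libraries share treatment, tissue and run, so the values describe likeness in this series and carry no p.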

How the data were processed

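RNA-seq libraries of trigeminal ganglion, spinal cord and cheek skin were analysed. The authors selected poly(A) RNA, sequenced single-end reads of 50 bases, aligned these to mm10 (Bowtie2, TopHat) and counted them per Ensembl gene with htseq-count, and the deposited values are those raw counts. The annotation release and strand setting are not given in the sources used here. Of 46078 identifiers, 45143 matched GENCODE M21 (GRCm38), which gave symbols, exon lengths and coordinates. The 6 genes, the lists of related genes and the cell markers were chosen with earlier results of these data known.

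Levels are cpm without TMM, and those of different genes were compared per kilobase of exon. Tests used edgeR 4.0.16 under R 4.3.3 (quasi-likelihood F test, TMM normalization, genes with at least 10 counts over the libraries fitted, Benjamini-Hochberg adjustment), with a term for cohort where both day 8 cohorts entered and a threshold of 0.1 in ganglion and 0.05 in skin and cord. The thresholds are those of the study's methods. Named genes are the 6 members, the related genes called in a comparison and genes among the 5 most like each member, of which 1 is not reported here. The libraries labelled with day 12 and wild type were left out. Alternatives were DESeq2 1.42.0, RLE size factors, no filter on low counts, each cohort alone, no cohort term, a block on the replicate number and leaving out each library. The fits were tested on simulated data. Same-numbered libraries of both treatments deviated together (r above 0.1 in every pair) in 2 ganglion sets only, day 5 (0.133 to 0.323, 3 pairs) and TSLPR KO day 12 (0.202 to 0.557, 4 pairs), which is a hint from the data, since the labels say nothing of pairing. Counts of 3 or fewer were taken as not detectable. No 2 libraries of a group agreed within sampling noise. The precision of a level is set by 15931871 to 67342879 counts per library and, for the low genes Alkal2 and Alk, by few reads.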

Additional observations from a re-analysis of the deposited data

Results flagged for a closer look

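A library far from the others of its group was found for 6 of 90 combinations of gene and group with 4 to 10 libraries, and chance gives about 1 in 20. In cord, Nptx1 was 249.1 cpm in MC903 aGr1 replicate 6 (others 206.1 to 222.5), Nptxr was 44.21 cpm in ethanol uninjected replicate 2 (others 46.71 to 47.49) and Alk was 3.081 cpm in ethanol uninjected replicate 1 (others 6.084 to 7.115). In skin on day 1, Nptx1 was 4.778 cpm in MC903 replicate 3 (others 7.644 to 8.146) and Alk was 0.0 cpm in MC903 replicate 2 (others 0.2186 to 0.2597). In ganglion, Alk was 5.166 cpm in day 1 ethanol replicate 1 (others 0.7218 to 1.004), the library that also held pituitary markers.

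All MC903 libraries lay above all ethanol libraries in ganglion and below them in skin for several genes in sets of the same day, injection and genotype. These differences between tissues were not tested. Over all genes, 3.24% were apart upward in ganglion and 11.6% downward in skin on day 5, 7.71% and 17.2% in PBS-injected mice, and 17.4% and 16.6% in TSLPR KO on day 8, where ganglion had 2 libraries per group. The ratio of mean cpm with MC903 to that with ethanol for Nptx1 was 1.602 in ganglion and 0.2848 in skin on day 5, 1.427 and 0.3188 in PBS-injected mice, and 1.342 and 0.295 in TSLPR KO on day 8. For Nptxr it was 1.559 and 0.6223 in PBS-injected mice and 1.195 and 0.6238 in TSLPR KO on day 8, and for Nptx2 in TSLPR KO on day 8 it was 3.061 and 0.2436.

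In the wild-type day 12 libraries, which no comparison uses, Vgf reached 263.8 cpm in a library labelled skin, where ethanol-treated skin in the libraries used held at most 1.07 cpm.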

How the results depend on the processing

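The log2 fold changes of the 6 genes were steadier than the number of genes called. In ganglion and cord 751 of 789 values under an alternative moved by less than 1 SD between replicates, and in skin and between tissues 159 of 186 kept their direction and their side of the threshold. DESeq2 called 178 genes in place of 0 in the cord PBS set, 78 in place of 0 on ganglion day 1, 65 in place of 0 on day 2, 49 in place of 2 on day 5, 210 in place of 41 on day 8 uninjected, 887 in place of 456 after aGr1, 185 in place of 0 in TSLPR KO day 8 and 260 in place of 79 in TSLPR KO day 12. With no filter on low counts the calls were 80 (cord PBS), 177 (day 2), 30 (day 5), 493 (day 8 uninjected), 1271 in place of 796 (PBS) and 1063 (TSLPR KO day 8). Of the 6 genes, 5 in place of 3 were called on ganglion day 8 uninjected and 3 in place of 0 in TSLPR KO day 8 by DESeq2 and with no filter, 2 in place of 1 in cord uninjected by both, and 3 in place of 1 in skin day 5 by DESeq2.

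On ganglion day 8 uninjected cohort A alone gave 63 genes, cohort B alone 1 gene, itself a member, and the fit with no cohort term 5. In skin day 8 cohort B alone gave 2258 genes in place of 6125, and 1 of the 6 genes was called in place of 2 in cohort A alone, in cohort B alone and with no cohort term. The replicate block changed the calls to 224 in cord PBS, 1992 in place of 3132 in cord aGr1, 1747 in place of 3118 in cord uninjected, 16 on ganglion day 2, 54 on day 5, 3479 in the PBS set, 480 in TSLPR KO day 8 (3 of the 6 genes), 356 in TSLPR KO day 12 and 3858 in skin day 8 cohort B, and 2 of the 6 genes passed in skin day 5. Outside ganglion day 5 and TSLPR KO day 12 same-numbered libraries share only a number. In cord PBS same-numbered libraries deviated in opposite ways (r = −0.356), and a block on crossed numbers, added after the data were seen, called 955 genes and 1 of the 6.

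Leaving out 1 library at a time gave 93 to 6075 genes in cord PBS (0 to 2 of the 6 genes; 2 without MC903 replicate 2), 2485 to 3798 in cord aGr1 (2 to 3), 1887 to 4960 in cord uninjected (1 to 2), 0 to 4899 on ganglion day 2 (0 to 1; 1 without ethanol replicate 2), 0 to 33 on day 5 (0 to 2), 5 to 71 on day 8 uninjected (2 to 4), 246 to 3602 in the PBS set (5 to 6), 161 to 463 after aGr1 (2 to 4), 0 to 832 in TSLPR KO day 8 (0 to 2), 31 to 95 in TSLPR KO day 12 (4 to 5), 1677 to 4908 in skin day 5 (1 to 2) and 4883 to 6445 in skin day 8 (2 to 3). With ethanol replicate 1 as the only control of day 5, added after the data were seen, 0 genes were called. On that day none of the 6 genes was called without ethanol replicate 2 or 3 or without MC903 replicate 2 or 3. A lone library left in an arm is assumed to vary like the other group. The number of genes with a smaller MC903 difference under aGr1 than PBS was 5 to 6 in ganglion and 0 to 4 in cord, where 3 had one with all libraries. In skin Vgf on day 5 was −0.568 to 0.183 without 1 library, above 0 only without ethanol replicate 3, and Alkal2 on day 8 was −0.21 in cohort B alone, −0.029 with no cohort term, −0.008 with no filter and −0.398 to 0.483 without 1 library (−0.158 without 1 cohort A ethanol library, −0.306 to 0.282 without 1 cohort B library). Nptx2 in skin day 5 passed the threshold with DESeq2, the block, or without ethanol replicate 3. The cause of these changes was not tested. Depth limits Alkal2 and Vgf in skin, Alkal2 in cord and Alk in ganglion.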
